A study of Mus musculus with 18 samples.

Results

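Adult bone marrow stromal cells rich in the osteoblast transcripts Bglap, Bglap2 and Ibsp are described here. Cells were selected on measured values: a cell of the adult stromal library was a member when these 3 genes together took 1% or more of its UMIs (unique molecular identifiers, each standing for 1 captured mRNA molecule). The rule was met by 528 of 6267 adult stromal cells, a share of 8.43% (exact Clopper-Pearson 95% interval 7.75 to 9.14%), in a series of 56201 cells. The other 5739 adult stromal cells are the comparison. The cells were CD45-Ter119- bone marrow cells of C57B6/J mice, sorted by flow cytometry, so that leukocytes and red cells were gated out, and profiled by 10x Genomics 3′ single-cell RNA sequencing together with DNA-barcoded antibodies (CITE-seq). The series holds 4 stromal libraries (E16.5, E18.5, P0 and adult) and 5 libraries of hematopoietic progenitors (HP). Adult stromal cells were 1 library made from a pool of mice, so there was no replicate, no comparison could be tested, and every interval given covers counting error only.

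The label osteolineage held for only some of the members. The deposited cluster code Osteo was carried by 184 of the 528 members, F9 by 205, CARs (the study's CXCL12-abundant reticular cells) by 76, F10 by 37 and other codes by 26, the last with a median of 25724 UMIs per cell against 12469.5 over all members. The largest contributor was therefore not the Osteo cluster, and the members are called Bglap/Ibsp-rich cells below. Within clusters, 51.0% of Osteo cells (45.7 to 56.2%), 22.4% of F9 cells (19.7 to 25.2%), 21.2% of CARs cells (17.1 to 25.8%) and 4.21% of F10 cells (2.98 to 5.76%) met the rule. The 10 leading genes of the Osteo cluster by fold included 3 osteoblast markers (Bglap, Bglap2 and Ifitm5), while those of F9 included none of that list, with Otor, Pdcd1, Msmp and the bone matrix and osteocyte gene Mepe among them. Of the 63 Mepe UMIs of all members, 53 were in F9 members.

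Osteoblasts build bone by secreting a matrix of type I collagen and non-collagenous proteins and by driving its mineralization. Commitment to the lineage depends on the transcription factors RUNX2 and SP7. Alkaline phosphatase marks early stages, osteocalcin marks mature osteoblasts, and some osteoblasts become embedded as osteocytes, which make DMP1 and sclerostin. In mice, Bglap and Bglap2 encode osteocalcin, the vitamin K-dependent calcium-binding protein of bone, and Bglap3 is their related neighbour. Ibsp encodes bone sialoprotein, an acidic matrix glycoprotein that can nucleate hydroxyapatite and that is also made in mineralizing cartilage.

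Of the genes that define the members, Bglap and Bglap2 are neighbours and Ibsp lies on another chromosome. On GRCm38.p6, the mm10 assembly that the deposited counts used, RefSeq places Bglap at chr3:88383495-88384466, Bglap2 at chr3:88377736-88378701 and Bglap3 at chr3:88368616-88372741, and Ibsp at chr5:104299287-104311472. The 3 Bglap genes are closely similar neighbours, so the split of UMIs between them is uncertain, and the rule used their sum for 2 of them. The 250 bases upstream of the RefSeq transcript starts of Bglap (minus strand, chr3:88384467-88384716) and Ibsp (plus strand, chr5:104299037-104299286) are shown because most members passed by only 1 of these genes. Capitals mark matches on either strand to the RUNX core ACCACA and to the TATA motif TATAAA.
Bglap: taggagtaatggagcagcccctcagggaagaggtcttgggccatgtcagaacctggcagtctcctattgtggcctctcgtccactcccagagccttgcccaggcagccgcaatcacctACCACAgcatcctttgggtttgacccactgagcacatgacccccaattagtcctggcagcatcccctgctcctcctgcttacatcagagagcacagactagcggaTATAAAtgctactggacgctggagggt
Ibsp: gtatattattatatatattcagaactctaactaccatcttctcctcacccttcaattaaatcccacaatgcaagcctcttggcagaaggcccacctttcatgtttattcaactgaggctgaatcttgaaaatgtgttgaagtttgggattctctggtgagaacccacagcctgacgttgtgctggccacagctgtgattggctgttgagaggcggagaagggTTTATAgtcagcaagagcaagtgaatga
The Bglap window held ACCACA from 132 to 127 bases upstream and TATAAA from 27 to 22 bases upstream. The Ibsp window held the reverse complement TTTATA from 28 to 23 bases upstream and no ACCACA on either strand. Among 32851 RefSeq windows of this length, 14.0% held ACCACA or its reverse complement, 12.4% held the TATA letters and 1.84% held both. Bglap2 was not in the promoter table.

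The share of UMIs in the 3 genes ranged from 1.00% to 21.8% among members, with a median of 2.37%. Members just inside the cutoff held 1.00008% (122 of 12199 UMIs, an F9 cell) and 1.00% (292 of 29159, an Osteo cell), and the cells just outside held 0.994% (55 of 5535, a CARs cell) and 0.987% (102 of 10330, an Osteo cell). The cutoff cut through a continuum, with 41 members between 1% and 1.1% and 38 cells between 0.9% and 1%. Among the other cells, 3029 of 5739 had no UMI of the 3 genes. Members and other cells had similar depth, with medians of 12469.5 and 11747 UMIs and of 3.58% and 3.57% mitochondrial UMIs.

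**Figure D1:**
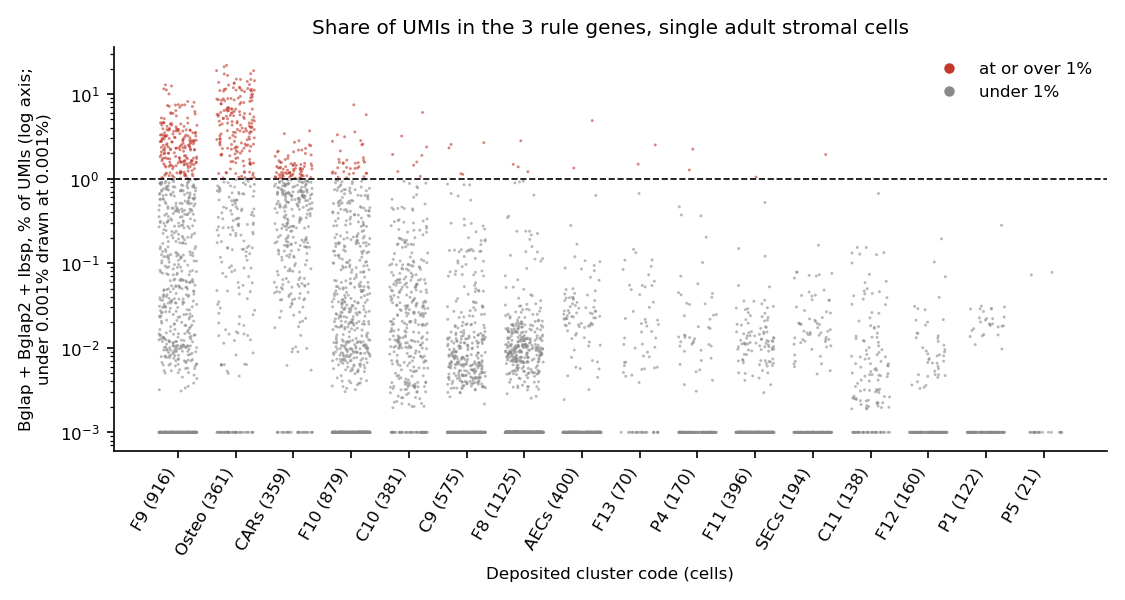
Each point is 1 adult stromal cell, placed by its deposited cluster code and by the percent of its UMIs that came from Bglap, Bglap2 and Ibsp (log axis), with the 1% cutoff dashed. Members (red) were most numerous in F9, Osteo, CARs and F10, and in each of these clusters the shares ran across the cutoff without a gap.

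Most members passed by Ibsp. Ibsp alone reached 1% in 391 members while Bglap plus Bglap2 stayed under it, Bglap plus Bglap2 alone reached 1% in 78, both reached it in 43, and in 16 only the sum did. Bglap plus Bglap2 reached 1% in 121 members, of which 116 carried the Osteo code. Ibsp reached 1% in 434, of which 203 were F9 cells, 100 Osteo, 74 CARs and 36 F10. Without Ibsp in the rule, 1.93% of the adult stromal cells would have been members.

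**Figure D2:**
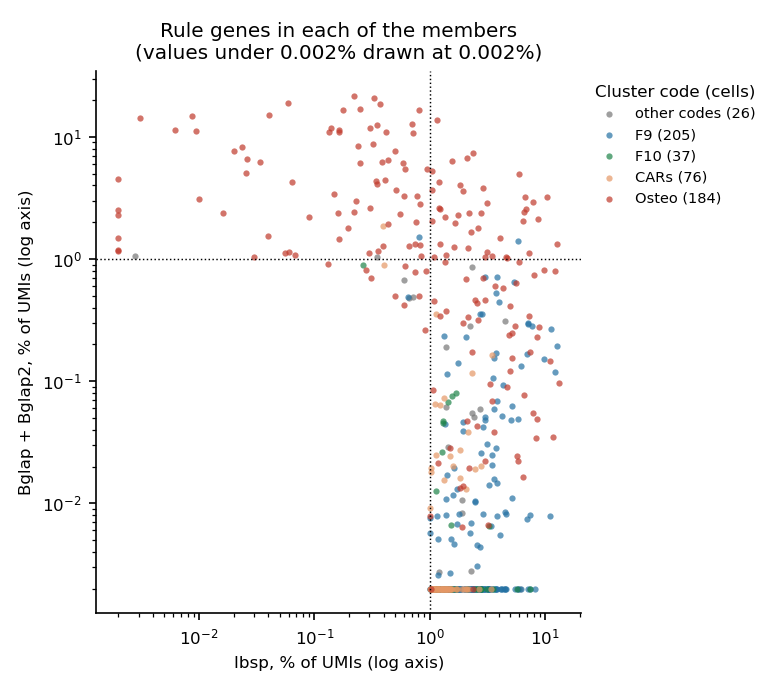
Each point is 1 of the 528 members, placed by the percent of its UMIs from Ibsp (horizontal, log axis) and from Bglap plus Bglap2 (vertical, log axis) and coloured by cluster code, with dotted lines at 1%. Nearly all cells above the horizontal line are Osteo cells (116 of 121), and most F9 (203 of 205), F10 (36 of 37) and CARs (74 of 76) members lie to the right of the vertical line.

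In Osteo members, Bglap ran from 0 over a median of 6818 CPM (counts scaled so that 10000 CPM is 1% of UMIs) to 147948 CPM. In F9, CARs and F10 members its median was 0, with highest cells of 10888, 6687 and 5525 CPM. The highest F9 cell thus exceeded the median Osteo member, and the ranges of all 4 subsets overlapped. Ibsp had a median of 11287 CPM in Osteo members, 24227 CPM in F9, 15117 CPM in F10 and 12899 CPM in CARs members. A Bglap UMI was found in 80.1% of all Osteo cells, 17.8% of F9 cells and 7.25% of arterial endothelial cells (AECs), which should not express it, at median depths of 13695, 12105 and 4520.5 UMIs. For Ibsp the shares were 72.0%, 66.9% and 12.0%. AECs that were not members held 16.8 CPM of Bglap and 74.6 CPM of Ibsp. These levels were taken as the free-RNA background of the library, beside which Bglap was at 474 CPM in F9 members and 293 CPM in CARs members. A Bglap UMI was found in 74 of 205 F9 members and 18 of 76 CARs members. Only 10 and 2 of them held 50 or more UMIs of Bglap plus Bglap2. Bglap was at 29.1 and 109 CPM in the F9 and CARs cells under the cutoff. Since Bglap is a rule gene, nothing is read from these differences.

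The osteocalcin copies are described only, since the rule used their sum. Of the Osteo members, 176 of 184 had a Bglap UMI, 174 a Bglap2 UMI and 168 both. Over the 138 Osteo members with at least 50 UMIs of these genes, Bglap took a median of 59.2% of the pair, with a range from 0 to 93.8%, and was the more abundant copy in 97. In CARs members the summed Bglap2 level of 1085 CPM came mostly from 1 cell, which held 509 of the 575 UMIs. Without it the level was 132 CPM.

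Against the other adult stromal cells, 549 of 15444 genes (3.55%) were at least 2-fold higher in CPM from summed counts in the Bglap/Ibsp-rich cells and 2651 (17.2%) at least 2-fold lower. Genes with at least 20 UMIs over both groups were compared, and the median log2 ratio over all of them was -0.25. Among genes of at least 100 CPM and 50 counts, beyond the 3 rule genes, the leading gene was Ifitm5, which encodes the osteoblast membrane protein BRIL, at 140 against 1.5 CPM, a ratio of 93.4 (95% counting interval 77.6 to 113). Next came Bglap3 at 242 against 3.28 CPM and Car3, a carbonic anhydrase, at 277 against 8.18 CPM, followed by Col13a1 with a ratio of 10.1. Since the split of UMIs between the Bglap genes is uncertain, Bglap3 is not independent of the rule. Omd, which encodes the bone and cartilage proteoglycan osteomodulin, was at 1473 against 166 CPM, a ratio of 8.86 (8.64 to 9.08), and Alpl, the alkaline phosphatase of bone, at 1520 against 176 CPM, a ratio of 8.65 (8.45 to 8.86). Cadm1, Scube1, Spp1, Frzb, Col1a1 and Ramp1 followed with ratios of 8.32, 6.81, 5.89, 5.13, 4.94 and 4.94. Some of these levels rested on few cells. A Car3 UMI was found in 9.09% of members, and the top 5% of cells held 95.2% of its UMIs, whereas an Alpl UMI was found in 81.1% of members and 29.4% of the other cells.

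Bone matrix genes other than the rule genes were mostly higher. Of 18 such genes, 12 were at least 2-fold higher and none lower, against 3.55% of all genes higher and 17.2% lower. Their median log2 ratio was 1.83, and the subsets differed as given below. The list includes Bglap3, whose UMIs cannot be cleanly split from those of Bglap and Bglap2. Col1a1 and Col1a2, the chains of type I collagen, were at 23504 against 4757 CPM and 20657 against 5233 CPM. Spp1, or osteopontin, was at 9999 against 1699 CPM. Sparc, or osteonectin, was at 62494 against 30033 CPM and was among the most even, found in nearly every cell of both groups. Chad, a collagen-binding leucine-rich protein known from cartilage, was at 10216 against 3207 CPM. Bgn, Serpinf1 and Col11a1 stayed within 2-fold, with ratios of 1.23, 1.32 and 0.76.

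Of 13 osteoblast transcription factors, 8 were at least 2-fold higher and none lower, against 3.55% of all genes higher and 17.2% lower. Runx2 was at 146 against 57.5 CPM, a ratio of 2.53 (2.37 to 2.70), and Sp7 at 88.6 against 28.0 CPM, a ratio of 3.17 (2.91 to 3.45). The homeobox factors Dlx5 and Dlx6 had ratios of 3.78 and 5.90, and Mef2c had 3.74. Atf4, Lef1 and Zfhx4 stayed within 2-fold. After thinning each cell to 1000 UMIs, which left out 2 members and 31 other cells, an Sp7 UMI was found in 17.4% of Osteo members (12.2 to 23.7%), 3.43% of F9 members (1.39 to 6.94%), 6.58% of CARs members (2.17 to 14.7%) and 1.65% of the other cells (1.33 to 2.01%). For Runx2 the CARs members had the highest share at 32.9% (22.5 to 44.6%), against 20.7% (15.0 to 27.2%) of Osteo and 7.84% (4.55 to 12.4%) of F9 members. Within the CARs cluster, none of 11 of these factors compared was higher in members than in the other cells, and 1 was lower. Of all genes, 1.99% were higher and 7.94% lower there.

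Mineralization genes were mixed, with 6 of 13 at least 2-fold higher and none lower, against 3.55% of all genes higher and 17.2% lower. In each subset some were lower, as given below. Phex, an endopeptidase of phosphate balance, was at 53.8 against 7.97 CPM and Slc8a3, a sodium-calcium exchanger, at 81.9 against 26.3 CPM. Phospho1, the phosphatase of matrix vesicles, had only 5 UMIs in members and a ratio of 2.92 (0.849 to 8.17). The phosphate and pyrophosphate handlers Enpp1, Ank, Slc20a1 and Slc20a2 stayed within 2-fold at ratios of 1.53, 1.19, 1.26 and 0.745. None of 20 collagen processing genes passed 2-fold in either direction, although type I collagen itself did, and Lox was nearest with a ratio of 1.97. Among 15 secretory stress genes, only Creb3l1, the factor that drives collagen secretion in osteoblasts, was past 2-fold, at 168 against 71.2 CPM.

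**Figure D3:**
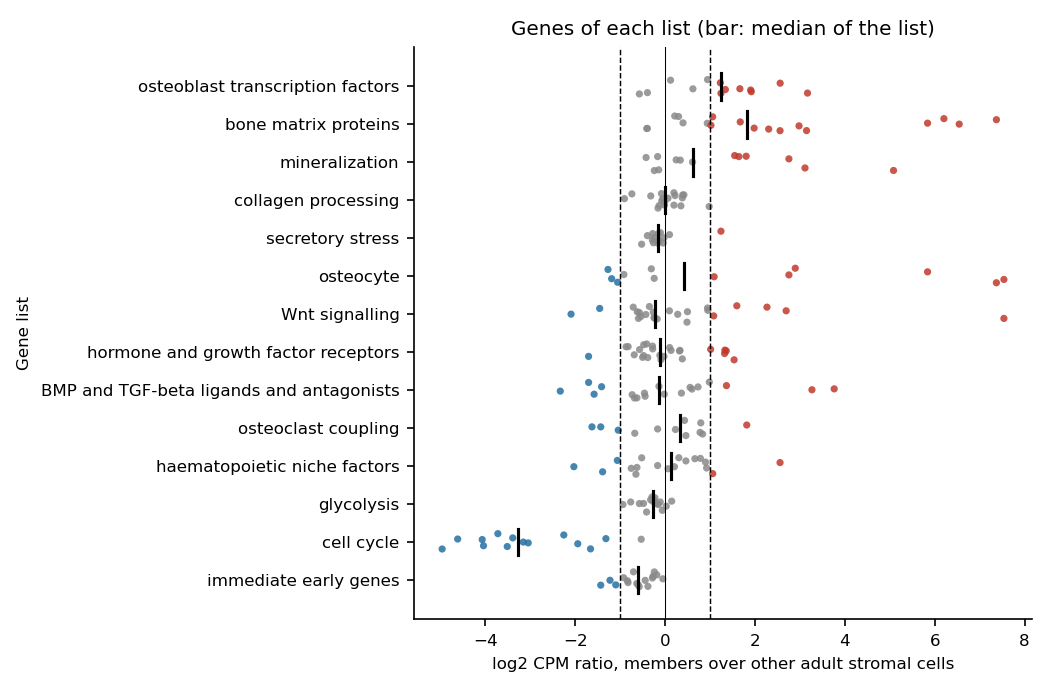
Each point is 1 gene of a list, placed by the log2 ratio of its CPM in the 528 members to that in the 5739 other adult stromal cells, with dashed lines at 2-fold and a bar at the median of the list. Genes without a UMI in one of the groups and the rule genes are left out. Bone matrix genes and osteoblast transcription factors lie to the right (medians 1.83 and 1.24), cell cycle genes to the left (median -3.27), and collagen processing genes lie between the lines.

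Of the 13 osteocyte genes that had enough counts, 6 were at least 2-fold higher, against 3.55% of all genes, and 4 lower, against 17.2%. Dmp1 was at 44.4 against 0.775 CPM, but it was found in only 53 members, of which 27 were Osteo, 16 F9 and 9 CARs cells. Sost, which encodes sclerostin, had 10 UMIs in members, or 1.25 CPM, and 4 in the other cells. Mepe was found in 2.27% of members. Dkk1, a secreted Wnt inhibitor, was at 77.7 against 0.417 CPM, a ratio of 186 (132 to 270), with a UMI in 23.1% of members and 0.383% of the other cells. Cd44, Ackr3 and Capg were lower, at ratios of 0.414, 0.481 and 0.438, as was Fgf23.

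Among 25 Wnt signalling genes compared, 5 were at least 2-fold higher and 2 lower, against 3.55% of all genes higher and 17.2% lower. The subsets differed in this list, as given below. Besides Dkk1, the higher genes were the ligand Wnt16 (a ratio of 6.47), the secreted inhibitor Wif1 (2216 against 461 CPM) and the receptors Lrp4 and Lrp5 with ratios of 3.02 and 2.12. The inhibitors Dkk2 and Sfrp1 were lower, at 7.65 against 32.7 CPM and 14.4 against 39.6 CPM. Of 25 hormone and growth factor receptors, 5 were higher: Pth1r, the receptor for parathyroid hormone, at 1123 against 437 CPM, and Vdr, Lifr, Fgfr1 and Fgfr2 with ratios of 2.51, 2.02, 2.90 and 2.5. Bmpr1b was lower. Of 19 BMP and TGF-beta ligands and antagonists, Bmp3, Bmp8a and Bambi were higher at ratios of 9.63, 13.6 and 2.58, and 4 were lower, among them Bmp7, Fstl1 and Inhba, so that the lower share of the last list was close to the 17.2% of all genes. The subsets differed in this list too, as given below.

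Of 12 osteoclast coupling genes, Sema4d was at least 2-fold higher, a call that turned around when cells were thinned to 1000 UMIs, and Sema3a, Efnb2 and Ccl2 were lower, against 3.55% of all genes higher and 17.2% lower. Tnfsf11, or RANKL, the ligand that drives osteoclast formation, was at 8.03 against 5.83 CPM. Its decoy receptor Tnfrsf11b, or osteoprotegerin, was at 350 against 204 CPM. RANKL was at 84.9 CPM in CARs members (45 of the 64 UMIs in all members), 6.15 CPM in Osteo members (19 UMIs) and 0 in F9 members, while osteoprotegerin was at 22.7, 228 and 517 CPM in these subsets.

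Cell cycle genes were low in members. Of 14 such genes, 13 were at least 2-fold lower and none higher, against 17.2% of all genes lower and 3.55% higher. Their median log2 ratio was -3.27. Mki67 was at 2.26 against 23.7 CPM and Top2a at 4.02 against 35.8 CPM. Pcna was the exception at 20.7 against 29.9 CPM. The comparison cells include the C11 cluster, whose leading genes were Exo1, Pbk and Melk, genes of DNA replication and mitosis, and no C11 cell met the rule (0 of 138 cells, an upper exact limit of 2.64%). The part of C11 cells in the comparison of all members was not tested. Comparisons within 1 cluster hold none of them, and there, of 11 cell cycle genes compared, 7 were lower in Osteo members (14.1% of all genes), 3 in F9 members (4.38%) and 6 in CARs members (7.94%), and none was higher (4.12%, 1.92% and 1.99% of all genes). Immediate early genes, which respond to tissue dissociation, were 2-fold lower in 3 of 17 cases (Atf3, Btg2 and Klf6), close to the 17.2% of all genes, and higher in none, and none of 16 glycolysis genes passed 2-fold.

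The genes with the largest deficit in members were Slurp1, Fabp4, Kera, Fbln2, Chodl, Mfap4, C1qtnf3, Nov, Cd34, Mfap5, Clec3b, Tnmd, Tppp3, Vcan and Ly6a. Fabp4, a fatty acid carrier of adipocytes and endothelium, was at 34.5 against 431 CPM. Cd34 was at 19.1 against 202 CPM, Clec3b at 40.1 against 420 CPM and Ly6a, which encodes Sca-1, at 84.3 against 672 CPM. Tnmd, or tenomodulin of tendon, was at 28.6 against 279 CPM. Of 10 PaS and fibroblast markers, 6 were at least 2-fold lower, and Lum was the only higher one, against 17.2% of all genes lower and 3.55% higher.

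Markers of vessels and muscle were low against comparison cells that include clusters of these types, whose part was not tested. All 8 endothelial markers (summed level 70.4 against 433 CPM) and all 7 skeletal muscle markers (13.9 against 121 CPM, with 3 at 0) were at least 2-fold lower, as were 6 of 8 pericyte and smooth muscle markers (342 against 841 CPM), 3 of 7 tendon markers and 3 of 5 Schwann cell markers. Members were 2 of 400 arterial and 1 of 194 sinusoidal endothelial cells. In P1 and P5, clusters led by skeletal muscle genes, they were 0 of 122 and 0 of 21 cells. Inside the Osteo cluster, 3 of 5 endothelial markers compared were higher in members and none lower (4.12% and 14.1% of all genes). Inside F9, none of 4 passed 2-fold (1.92% and 4.38%). Of skeletal muscle markers, 1 of 2 was higher inside Osteo, and 1 of 3 was higher and 1 lower inside F9. The Schwann cell markers Sox10 and Mbp turned around under alternatives given at the end. Of blood cell markers with enough counts, 1 of 6 erythroid (94.6 against 180 CPM), 0 of 5 neutrophil (13.9 against 10.2 CPM), 2 of 3 monocyte and macrophage, 2 of 3 B cell and 2 of 2 megakaryocyte markers were lower and none was higher, against 17.2% of all genes lower, and all 5 T and NK cell markers were at 0. Of 4 osteoclast markers compared, 2 were lower, and over all 7 the sum was 95.2 against 133 CPM with 2 at 0. Chondrocyte markers were abundant in both groups, with 6 of 11 at least 2-fold lower, none higher and none at 0, and sums of 37860 and 45410 CPM. Of 6 hypertrophic chondrocyte markers, of which Sp7 and Mef2c are also on the transcription factor list, 5 were higher, and the sum was 2129 against 667 CPM. In Osteo members 5 were higher and 0 lower, but 1 and 2 in F9, 2 and 3 in CARs, and 0 and 4 in F10 members. The shares of all genes in these subsets are given below. Members of other codes include 9 cells of C10, whose leading genes included the markers Ihh and Panx3. The part of cartilage cells in the results on all members was not tested. CAR markers were higher in 5 of 10 cases and hematopoietic niche factors in 2 of 18 (3 lower), against 3.55% of all genes higher and 17.2% lower. The subsets differed in both lists as given below. The ratios of the CAR markers Cxcl12, Lepr, Adipoq, Hp and Esm1 turned below 1 with a cutoff of 2% and with Osteo members alone.

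The members of the different clusters were unlike, and each subset was compared with the same 5739 other cells. Past 2-fold were 4.34% of genes higher and 26.8% lower in Osteo members, 3.70% higher and 26.3% lower in F9 members, 17.4% higher and 30.4% lower in CARs members, and 5.78% higher and 38.3% lower in F10 members. A gene without a UMI in a subset was counted as lower, so the lower shares depend on the summed UMIs of the subset. They are not a measure of how unlike the subsets are. Of 8 osteoblast markers that the rule did not use, 8 were higher in Osteo members, 3 higher and 2 lower in F9 members, 4 higher and 2 lower of the 7 compared in CARs members, and 1 higher and 4 lower of the 7 compared in F10 members. Bone matrix genes were higher in 13 of 17 compared in Osteo members, in 8 of 18 in F9 members with 4 lower, in 4 of 17 in CARs members with 9 lower, and in 7 of 17 in F10 members with 6 lower. Of 13 transcription factors, 9 were higher and 1 lower in Osteo members, 3 and 1 in F9 members, 6 and 2 in CARs members, and 2 and 5 in F10 members. In the same order, 7 and 7, 3 and 12, 8 and 7, and 4 and 13 of 25 Wnt signalling genes were higher and lower. For BMP and TGF-beta ligands and antagonists the counts were 4 and 10, 2 and 8, 8 and 7, and 1 and 6 of 19. Mineralization genes had 6 and 1 of 13, 5 and 4 of 13, 3 and 5 of 12, and 4 and 5 of 12. Immediate early genes were lower in 10 of 17 cases in Osteo members, in 3 of 17 in F9 and CARs members and in 8 of 17 in F10 members, and glycolysis genes were lower in 2, 1, 10 and 1 of 16 cases in Osteo, F9, CARs and F10 members (1 higher in CARs members). The part of either list in the results of these subsets was not tested. CAR markers were higher in all 10 cases in CARs members, but in none in Osteo members (9 lower), F9 members (8 lower) or F10 members (8 lower). The authors annotated clusters by marker genes in these same cells, so the markers of a cluster's own type are a description.

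**Figure D4:**
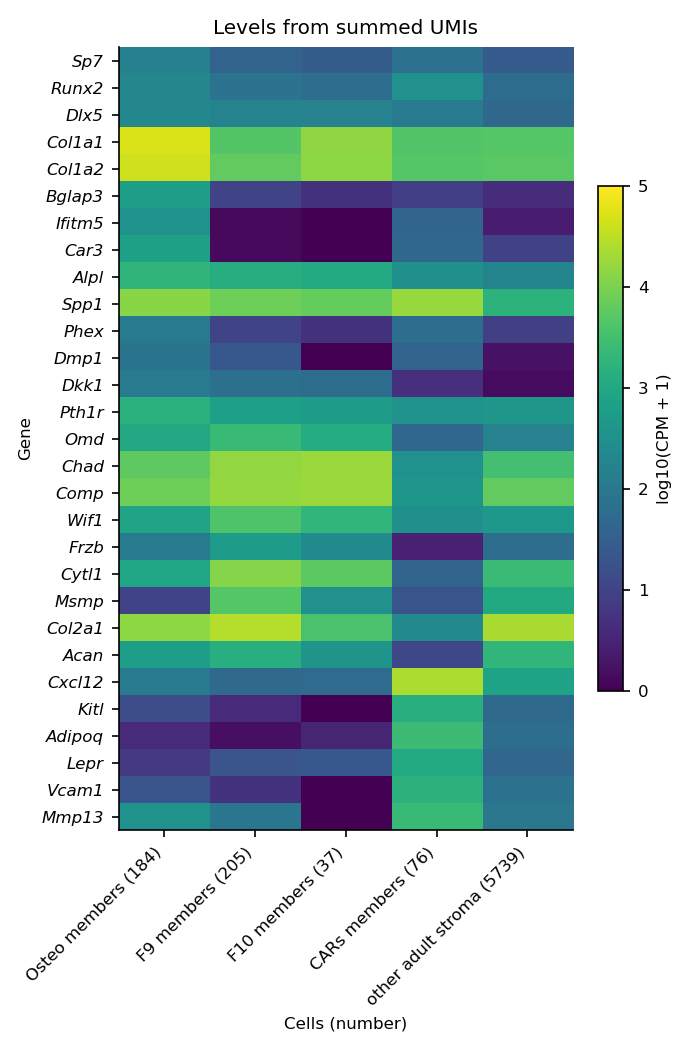
Colour gives log10(CPM + 1) from summed UMIs of selected genes (rows) in the members of 4 cluster codes and in the other adult stromal cells (columns, number of cells in brackets). Osteo members are bright for Col1a1 and Col1a2, F9 and F10 members for Chad and Comp, Osteo, F9 and F10 members for Omd (1025, 2365 and 1246 CPM), and CARs members for Cxcl12, Kitl, Adipoq, Lepr and Vcam1.

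Among the 4 subsets, Osteo members had the highest levels of Col1a1 (52079 CPM), Ifitm5 (353 CPM), Car3 (708 CPM) and Sp7 (157 CPM), while Runx2 was at 202 CPM in them and 338 CPM in CARs members. Their leading genes against the other cells also included Slc36a2, an amino acid transporter, at 154 against 3.23 CPM, Cpz, a carboxypeptidase that acts on Wnt proteins, at 215 against 5.53 CPM, and Ptprz1, a receptor phosphatase, at 162 against 5.07 CPM. Thinned to 1000 UMIs, an Ifitm5 UMI was found in 16.8% of Osteo members (11.7 to 23.1%) and in 0 of 204 F9 members, which allows a share of cells with a UMI of up to 1.79% at this depth and says nothing of cells that express the gene below it. At full depth F9 members held 1 Ifitm5 UMI. Clec3b and Msmp, a small secreted protein, were among the lowest, with Clec3b at 0.648 against 420 CPM, a level that rested on 2 UMIs, and Msmp at 9.07 against 1077 CPM.

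Osteo members were not uniform. Col2a1, the collagen of cartilage, took 1% or more of UMIs in 37 of the 184, against 6 of the 177 Osteo cells under the cutoff. Across all members it did so in 3 of the 78 cells that passed by Bglap plus Bglap2 alone, 11 of the 43 that passed by both, and 159 of the 391 that passed by Ibsp alone. In the same order Col1a1 was at 75358, 27550 and 7938 CPM, Ifitm5 at 565, 248 and 5.45 CPM, Comp at 2308, 13491 and 13923 CPM, and Alpl at 826, 2820 and 1565 CPM. These classes were cut from the rule genes and are a description. They also differ in cluster, since 74 of the 78, 42 of the 43 and 58 of the 391 cells carried the Osteo code.

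Osteo cells with and without a Dmp1 UMI were set side by side, although the split depends on depth. Every cell in it had passed the rule by the sum of Bglap, Bglap2 and Ibsp, so the levels of these genes are a description and nothing is read from them. The 27 Osteo members with Dmp1 had 91007 CPM of Col1a1 and 295 CPM of Phex, against 39329 and 54.2 CPM in the 157 without. Bglap was at 56936 against 22788 CPM and Ibsp at 5727 against 29285 CPM. The cells with Dmp1 had less Alpl (495 against 2340 CPM) and Col2a1 (1016 against 18286 CPM). Enpp6, a phosphodiesterase, was at 109 against 18.9 CPM. Genes lower with Dmp1 included Aspn (18.4 against 561 CPM), Fxyd3 and Ihh. Ostn, which encodes the bone peptide osteocrin, had no UMI with Dmp1 and 121 CPM without. Markers of other cells moved with this split. The 8 endothelial markers summed to 198 CPM with Dmp1 and 14.6 CPM without, and 87 of the 151 UMIs with Dmp1 came from 1 cell, without which the sum was 88.8 CPM. Leaving out that cell left Col1a1 at 91992 CPM, Bglap at 53967 CPM and Ibsp at 5952 CPM in the cells with Dmp1. The 6 erythroid markers summed to 425 against 58.0 CPM, with 264 of 324 UMIs in 1 cell and 83.3 CPM without it. Chondrocyte markers summed to 4052 against 33230 CPM, pericyte and smooth muscle markers to 80.1 against 381 CPM and CAR markers to 105 against 556 CPM. The part of these cells in the other differences was not tested.

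Against the 177 Osteo cells under the cutoff, Osteo members had more Dkk1 (118 against 2.78 CPM), Frzb (116 against 3.17 CPM), Ifitm5 (353 against 11.9 CPM), Ramp1 (191 against 11.9 CPM) and Cytl1 (866 against 33.3 CPM). They had less Igf1, an insulin-like growth factor, at 31.4 against 793 CPM, and less Igfbp3, Col8a1, Apod, Mfap4 and Nov. Mmp13, a collagenase, was at 358 against 1400 CPM. Col1a1 differed by less, at 52079 against 21873 CPM. Chondrocyte markers moved with this difference, summing to 26031 against 7898 CPM over 11 genes, and endothelial markers summed to 59.9 against 37.7 CPM (32.2 and 23.6 CPM without the cell with most of them in each group). Lower sums in members were those of pericyte and smooth muscle markers (306 against 849 CPM), PaS and fibroblast markers (10556 against 19249 CPM), tendon markers (2653 against 5335 CPM) and CAR markers (445 against 1030 CPM). The part of these cells was not tested.

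F9 members held Ibsp together with abundant cartilage matrix transcripts. Col2a1 was at 27579 against 23237 CPM in the other stromal cells, Comp at 16024 against 6247 CPM and Chad at 15805 against 3207 CPM. Col1a1 was at 4500 against 4757 CPM, so type I collagen was not raised in them. Of the 11 chondrocyte markers, Comp was the only one at least 2-fold higher and 7 were lower. Against the other cells their leading genes after Ibsp were Omd (2365 against 166 CPM), the Wnt antagonists Frzb (572 against 59.8 CPM) and Wif1 (4241 against 461 CPM), Pdzrn4, Alpl (1332 against 176 CPM), Scube1, Rbp4, Crispld1 and Chst1. Wif1 was found in 97.1% of F9 members. Postn, C3, Mfap4, Mfap5 and Fbln2, genes of fibrous tissue and complement, were among the lowest. Col2a1 took 1% or more of UMIs in 59.0% of F9 members and in 36.7% of the F9 cells under the cutoff.

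Inside the F9 cluster, 1.92% of genes were at least 2-fold higher in members than in the 711 other cells and 4.38% lower, and several bone genes were higher. Alpl was at 1332 against 250 CPM, a ratio of 5.34 (5.07 to 5.62), Omd at 2365 against 655 CPM, Spp1 at 7933 against 2486 CPM and Pth1r at 664 against 209 CPM. Prg4, which encodes the joint lubricant lubricin, was 5.76-fold lower (5.69 to 5.83), at 8401 against 48416 CPM. Mgp, an inhibitor of calcification, was 4.21-fold lower (4.12 to 4.29), at 3085 against 12971 CPM. Cilp, Gas1, Matn3 and Htra4 were lower as well. Car3 and Ifitm5 each had 1 UMI in the 205 F9 members. Marker sums of other cells moved as well: erythroid markers were at 49.5 against 113 CPM (44.4 and 87.3 CPM without the cell with most of them in each group), Schwann cell markers at 178 against 291 CPM, CAR markers at 440 against 683 CPM and chondrocyte markers at 49907 against 32884 CPM. Their part was not tested.

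The 37 F10 members also paired Ibsp with Comp (18048 CPM) and Chad (17754 CPM), but with more Col1a1 (14749 CPM) and Dcn (28698 CPM) and less Col2a1 (3672 CPM) than F9 members. Compared with F9 members they had more Npy (285 against 4.08 CPM) and Angptl7 (1839 against 38.3 CPM), and less Cnmd, a cartilage angiogenesis inhibitor, at 13.5 against 520 CPM. Npy and Angptl7 were also among the 10 leading genes of the whole F10 cluster, and gene levels of members were not compared with those of the other F10 cells. Chondrocyte markers summed to 22743 against 49907 CPM, PaS and fibroblast markers to 34148 against 15384 CPM and tendon markers to 7213 against 4707 CPM. Their part was not tested. No Dmp1, Ifitm5 or Car3 UMI was found in F10 members.

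CARs members were rich in CAR genes, which is a description, since the authors annotated clusters by marker genes in these same cells. Cxcl12, the chemokine that retains hematopoietic stem cells, was at 24070 CPM and Kitl, or stem cell factor, at 1361 CPM, with Adipoq at 2688 CPM, Lepr at 1157 CPM and Vcam1 at 1627 CPM. Of the 18 hematopoietic niche factors, 13 were at least 2-fold higher and 3 lower in CARs members than in the other stromal cells, against 1 in Osteo members, where 9 were lower, and 1 in F9 members, where 13 were lower. Of all genes, 17.4% were higher and 30.4% lower in CARs members, 4.34% and 26.8% in Osteo members, and 3.70% and 26.3% in F9 members. Cxcl12 was at 119 CPM in Osteo members and 53.0 CPM in F9 members, so its ratio of 2.08 over all members came from CARs cells and turned to 0.147 when Osteo members alone were compared and to 0.503 with a cutoff of 2%. Against the other cells of the CARs cluster, 1 of 15 niche factors compared was higher in members and none lower. None of 10 CAR markers passed 2-fold there, against 1.99% of all genes higher and 7.94% lower. Within the CARs cluster, members and the 283 other cells had Cxcl12 at 24070 and 19420 CPM, while members had more Col1a1 (4412 against 1311 CPM), Spp1 (17175 against 7494 CPM), Timp1, A2m and Ifitm1. Cytl1, Col2a1, Acan and Prg4 were lower. Marker sums of other cells were lower in these members too, at 908 against 3765 CPM for chondrocytes, 2275 against 4300 CPM for PaS and fibroblasts and 251 against 698 CPM for tendon. The erythroid sum was 145 against 495 CPM and the osteoclast sum 15.1 against 191 CPM, and 891 of 1223 and 332 of 472 UMIs of the other cells lay in 1 cell each, without which they were at 135 and 57.0 CPM. The part of these cells was not tested. CARs members were shallower, with a median of 5762.5 UMIs against 13981 in Osteo members.

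Antibody tags were counted on the same cells for surface Sca-1 (Ly6A/E), CD31, CD140a and CD73. The median count per cell was 16 in members and 22 in the other cells for Sca-1, 3 and 5 for CD31, 3 and 4 for CD140a, and 14 and 22 for CD73. The share of cells above a centred log-ratio of 1 was 4.73% (3.09 to 6.91%) against 21.7% (20.7 to 22.8%) for Sca-1, 5.68% (3.87 to 8.01%) against 20.9% (19.9 to 22%) for CD31, 6.25% (4.34 to 8.67%) against 19.8% (18.8 to 20.8%) for CD140a and 11.9% (9.29 to 15.0%) against 26.4% (25.3 to 27.6%) for CD73. For all 4 tags the intervals of members as a whole lay below those of the other cells. They cover counting error over cells of 1 library. The other cells include whole clusters of other types, AECs among them, whose part was not tested. Lower shares were not found in every subset: among the 26 members of other codes the shares were 26.9% for Sca-1, 34.6% for CD31, 26.9% for CD73 and 19.2% for CD140a. The intervals of F10 members reached those of the other cells for CD31 (10.8%, 3.03 to 25.4%), CD140a (18.9%, 7.96 to 35.2%) and CD73 (21.6%, 9.83 to 38.2%). The other cells of the F10 cluster had a CD73 share of 43.7% (40.3 to 47.1%), above the interval of F10 members. For Sca-1, CD31 and CD140a the intervals overlapped inside this cluster. Inside the F9 cluster, CD73 was above this level in 6.83% of members (3.78 to 11.2%) and 28.6% of the other cells (25.3 to 32.0%). For Sca-1, CD31 and CD140a the intervals of members and other F9 cells overlapped. Inside the Osteo and CARs clusters the intervals overlapped for all 4 tags. For CD73 the shares were 16.8% (11.7 to 23.1%) and 19.2% (13.7 to 25.8%) in Osteo cells. In CARs cells they were 3.95% (0.822 to 11.1%) and 9.19% (6.09 to 13.2%).

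**Figure D5:**
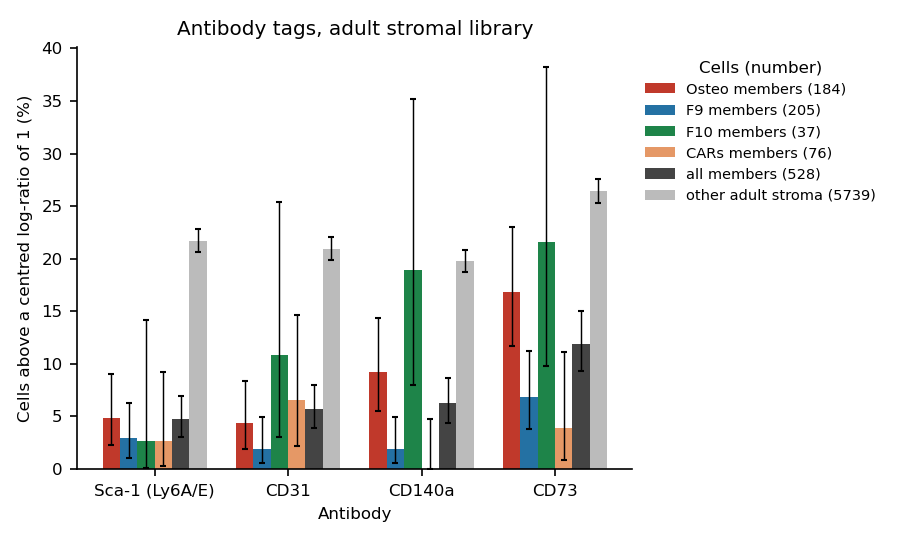
Bars give the percent of cells with a centred log-ratio above 1 for each of 4 antibodies, in members by cluster code, in all members and in the other adult stromal cells, with exact 95% binomial intervals as error bars. For each antibody the bar of all members is below that of the other cells, and F10 members have the widest intervals (37 cells).

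Few perinatal cells met the rule: 9 of 8226 at E16.5, 2 of 6642 at E18.5 and 6 of 14084 at P0, or 0.109% (0.0500 to 0.208%), 0.0301% (0.00365 to 0.109%) and 0.0426% (0.0156 to 0.0927%). These cells carried the codes C5 and F2. Their rule UMIs were almost all Ibsp except in 1 cell, a P0 cell of code F2 with 55 Bglap and 90 Bglap2 UMIs of 9559. Over whole stromal libraries Ibsp was at 37.1, 19.0, 35.4 and 2480 CPM at E16.5, E18.5, P0 and adulthood, and Bglap at 0.419, 1.95, 2.81 and 1160 CPM. A whole-library level alone does not tell fewer cells of a type from less RNA per cell. The cells that met the rule held 2856 of 4340, 1151 of 2140 and 2820 of 6907 Ibsp UMIs at E16.5, E18.5 and P0. Their median shares of UMIs in the 3 genes were 1.47%, 2.48% and 1.56%, against 2.37% in adult members. All of these cells were chosen by the same cutoff, and the part of cell number was not tested. Each age was also 1 library, and age and library cannot be told apart.

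With 6 P0 cells, 135507 UMIs in all, 39.5% of genes compared were at least 2-fold higher in adult members and 12.2% at least 2-fold lower. Genes entered on counts summed over both groups, so a gene without a P0 UMI was counted as higher. These shares therefore depend on the small P0 total, and no conclusion is drawn from their difference. Among the genes furthest apart, Prg4 was at 4230 against 22.1 CPM, Clu at 2511 against 36.9 CPM and Cytl1 at 5829 against 81.2 CPM in adult and P0 cells, and Myoc, Cilp2 and Thbs4 had no UMI at P0. H19, an imprinted fetal transcript, was at 52.4 against 841 CPM, Stmn1 at 10.0 against 472 CPM and Dmp1 at 44.4 against 443 CPM. The Dmp1 level at P0 rested on 3 cells and was 239 CPM without the cell that held 32 of the 60 UMIs. The same limit holds for markers of other cells, where a gene without a P0 UMI was again counted as higher. Higher in adult members were 9 of 10 CAR, 8 of 10 PaS and fibroblast, 5 of 7 tendon, 8 of 8 endothelial and 4 of 4 erythroid markers compared, and none was lower. Of 11 cell cycle genes compared, 10 were lower in adult members and none higher. The part of these lists was not tested. Col10a1, the collagen of hypertrophic cartilage, was found in 6 of 9, 2 of 2 and 4 of 6 cells at E16.5, E18.5 and P0. Its level in these cells was 8137, 12040 and 4258 CPM, against 1049 CPM in adult members, where it was found in 16.5% of cells. Single cells carried the perinatal levels: without the cell with most Col10a1 they were 5390, 47.0 and 818 CPM. No cell was left out of the adult level, so these reduced levels are not set against it.

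Cell barcodes shared with other libraries were counted. Each of the other 8 libraries shared between 0 and 27 barcodes with the adult stromal library, and at most 2 of them belonged to members.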

How the data were processed

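The members and the gene lists were chosen with earlier results of these data known. Per the labels and the study's methods, the authors aligned reads to mm10 with Cell Ranger 3.1.0, merged libraries with its aggregation step, which equalizes read depth, and used R 4.0 and Seurat 3.1.5. The deposited mRNA matrix holds raw UMI counts of 20275 genes and the antibody matrix raw counts of 29 antibodies. The deposited mitochondrial share is a fraction of UMIs, at most 7.50% in adult stromal cells, and their lowest total was 480 UMIs. Cluster codes and compartments were used as deposited. The authors removed cells of very high UMI or gene number as putative doublets. Scrublet then marked 0 adult stromal cells.

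UMIs were summed over cells and divided by the total to give CPM. CPM has exact Poisson, ratios exact conditional binomial and shares exact Clopper-Pearson 95% intervals, all for counting error only. Genes with at least 20 counts over both groups were compared, and a ratio of at least 2 or at most 0.5 was counted. No test was run because each age has 1 stromal library. Named genes were all genes of 14 pathway and 17 marker lists and those with the largest ratios (15 each way for all members, 10 for other comparisons) among genes with at least 100 CPM and 50 counts in the higher group, without mitochondrial and ribosomal protein genes and Gm42418. Antibody counts were centred by log-ratio across the library. Some genes of these lists are not reported here. The calculation of ratios and their intervals was checked on simulated counts of known ratio, which is no test of a difference between cells. Python 3.11.15, numpy 2.4.6, scipy 1.17.1, pandas 2.3.3, scanpy 1.11.5 and matplotlib 3.10.9 were used. Alternatives covered the cutoff, rule genes, depth, doublets, the summary over cells, the CPM denominator and the count filter. Osteo members alone, Ibsp alone, leaving out the 5% of cells with the highest doublet score and leaving out single cells were chosen after seeing the data.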

Additional observations from a re-analysis of the deposited data

Results flagged for a closer look

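The adult HP library, which enters no comparison above, held 66 UMIs of Bglap, Bglap2 and Ibsp, more than the 3 that a count of 0 allows. Ibsp made up 50 of them, or 0.845 CPM. In this library 2 of 5985 cells met the rule, with 493 and 441 UMIs and the deposited code Stroma.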

How the results depend on the processing

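The share of members moved from 8.43% to 12.7% with a cutoff of 0.5%, 4.88% with a cutoff of 2%, 1.93% without Ibsp and 6.93% with Ibsp alone (the last chosen after seeing the data). The counts of genes past 2-fold kept within 1.5 times of 549 higher and 2651 lower, except under count filters (298 and 1676 at 100 counts, 1167 and 5359 at 1 count, where fewer or more genes are compared) and with Osteo members alone (4114 lower, chosen after seeing the data). Against P0 the counts became 2182 and 636 at 100 counts, and 2054 were lower with a cutoff of 2%, where 1 P0 cell was left. Bglap2 in CARs members fell from 1085 to 132 CPM without 1 cell. With a cutoff of 2% and with Osteo members alone, the ratios of Cxcl12 (0.503 and 0.147), Lepr (0.575 and 0.133), Adipoq (0.764 and 0.0455), Hp (0.425 and 0.249) and Esm1 (0.650 and 0.173) turned below 1. Sox10 turned to 2.11 with the mean of single-cell CPM and to 1.1 with Osteo members alone, where Igf2 turned to 1.24. Thinned to 1000 UMIs, Sema4d turned to 0.987 and Mbp to 1.21. Of the 549 genes called higher, 171 were called again after thinning, where counts are fewer. Sizes were less stable than directions: ratios of named genes past 2-fold left their counting interval for 105 of 142 genes with the mean of single-cell CPM, 101 of 124 thinned, 102 of 137 with Osteo members alone and 73 of 139 with a cutoff of 2%. The cause was not tested. All 4 antibodies kept their direction as centred log-ratios. Scrublet marked no cell, so leaving out its doublets changed nothing by construction. No cluster of the adult stroma was led by blood markers, so leaving such clusters out was not run. No paired analysis was possible because each age has 1 stromal library.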
